A study of Mus musculus with 8 samples.

Results

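Endothelial receptors and surface markers are the proteins by which vessel-lining cells sense growth factors, hold on to each other and meet blood cells. The group described here holds 10 mouse genes, chosen by name: Kdr, Flt1, Flt4, Nrp1, Tek, Tie1, Pecam1, Cd34, Vcam1 and Vwf. On the array they were read by 18 probe sets, each annotated with exactly 1 gene symbol, of 12422 probe sets that are not controls. All 10 genes had at least 1 probe set. A probe set is a collection of short oligonucleotides that together read 1 transcript, and its value is called a signal.

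RNA was measured on 8 single-colour Affymetrix mouse arrays, 1 sample per array. On 4 arrays it came from subconfluent cultures, grown to under 50% confluency, and on the other 4 from mature confluent monolayers. Per the labels all were mouse aortic endothelial cells, with equal cell numbers for every sample and no other treatment named. The labels give no strain, age, passage or isolation method, and do not say whether the samples of a group were separate cultures, so p-values measure the spread between these arrays. Both groups are numbered 1 to 4 as experiments. The comparison asks how expression differs between cells with free space around them and cells that have filled the dish.

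In vessels, VEGF (vascular endothelial growth factor) family ligands bind the receptor tyrosine kinases made from Kdr, Flt1 and Flt4, and Nrp1 encodes neuropilin, a co-receptor that also binds class III semaphorins. Tek encodes the receptor for angiopoietins, and Tie1 its orphan relative. Pecam1 encodes an adhesion protein of endothelial cell contacts, Cd34 a sialomucin of endothelial, haematopoietic and some stromal cells, Vcam1 an adhesion protein that binds integrins on white blood cells and is induced by inflammatory signals, and Vwf the clotting protein von Willebrand factor, stored in endothelial Weibel-Palade bodies. Of these, Vcam1, Cd34 and Nrp1 are also known from fibroblasts and other mesenchymal cells.

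Promoter sequences for 7 of the 10 genes were found in a RefSeq table for GRCm38.p6, each covering 250 bases before and 50 after the annotated start. The 4 printed here belong to a pair of members with high signal (Cd34 and Nrp1) and a pair with signal near the bottom of the arrays (Tie1 and Tek), since the level of signal is where the members differ most. Capitals mark the letters GGAAG or, on the opposite strand, CTTCC, a form of the site bound by ETS family factors. Those factors are known to bind regulatory DNA of endothelial genes. Their core, GGAA or GGAT, is shorter, and copies of it with other letters beside it are not marked or counted. The Cd34 window is chr1:194938571-194938870 on the plus strand, that of Nrp1 chr8:128358823-128359122 on the plus strand, that of Tie1 chr4:118489800-118490099 on the minus strand, and that of Tek chr4:94739039-94739338 on the plus strand.
Cd34: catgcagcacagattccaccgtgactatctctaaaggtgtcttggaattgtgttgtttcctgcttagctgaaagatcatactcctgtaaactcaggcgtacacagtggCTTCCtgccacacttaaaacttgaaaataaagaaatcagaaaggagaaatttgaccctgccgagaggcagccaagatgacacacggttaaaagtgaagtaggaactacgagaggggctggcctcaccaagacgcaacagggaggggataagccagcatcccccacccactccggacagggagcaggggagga
Nrp1: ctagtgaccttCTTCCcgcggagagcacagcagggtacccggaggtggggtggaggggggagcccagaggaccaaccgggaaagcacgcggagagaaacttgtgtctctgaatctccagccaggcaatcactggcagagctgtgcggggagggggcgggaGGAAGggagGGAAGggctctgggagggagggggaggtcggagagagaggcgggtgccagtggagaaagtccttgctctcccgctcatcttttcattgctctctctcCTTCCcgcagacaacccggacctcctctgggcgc
Tie1: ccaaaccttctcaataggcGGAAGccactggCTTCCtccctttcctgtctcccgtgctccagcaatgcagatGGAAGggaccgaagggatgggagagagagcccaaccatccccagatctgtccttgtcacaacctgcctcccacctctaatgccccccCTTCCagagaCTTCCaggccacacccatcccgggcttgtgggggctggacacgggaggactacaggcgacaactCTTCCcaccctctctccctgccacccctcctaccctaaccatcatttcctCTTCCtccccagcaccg
Tek: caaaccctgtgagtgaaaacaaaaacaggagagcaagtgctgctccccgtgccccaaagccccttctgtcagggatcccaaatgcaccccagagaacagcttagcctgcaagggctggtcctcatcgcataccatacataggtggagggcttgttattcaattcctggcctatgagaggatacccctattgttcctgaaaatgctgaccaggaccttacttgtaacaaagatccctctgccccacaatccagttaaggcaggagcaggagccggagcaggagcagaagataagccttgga

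Pecam1, Vwf and Vcam1 are named only. The Tie1 window held 7 matches to GGAAG or CTTCC, that of Nrp1 4, that of Cd34 1 and that of Tek 0. Among the members not printed, Flt1 had 3 matches, and Kdr and Flt4 had 1 each. A match stood in 6 of the 7 member windows and in 71.4% of all 32851 windows of the same length in the table. The letters GATAA, read by GATA factors, or TTATC on the opposite strand, were found in 2 of the 7, those of Cd34 and Tek, and in 25.4% of all windows. These matches are descriptions of letters, and none was tested as a binding site.

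A chosen minimum on signal put the members into 2 sets, and the receptors Kdr, Tek and Tie1, used to define endothelial cells, lay under it. The sets were not far apart at that minimum, with Flt4 (104417_at) at 285 and Pecam1 at 111 over the 8 arrays. Vcam1, Cd34, Nrp1 and Flt4 had a probe set averaging 200 or more across the 8 arrays, the minimum for testing, and Kdr, Flt1, Tek, Tie1, Pecam1 and Vwf did not. Of the 18 probe sets 8 reached it, and of all 12422 probe sets that are not controls 6007 did. By gene, 4 of 10 did, against 56.6% of all genes on the array, 4670 of 8251. Probe sets differ in how brightly they read their transcript, so percentiles place a signal among all 12422 signals and do not compare amounts of transcript between genes.

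**Figure D1:**
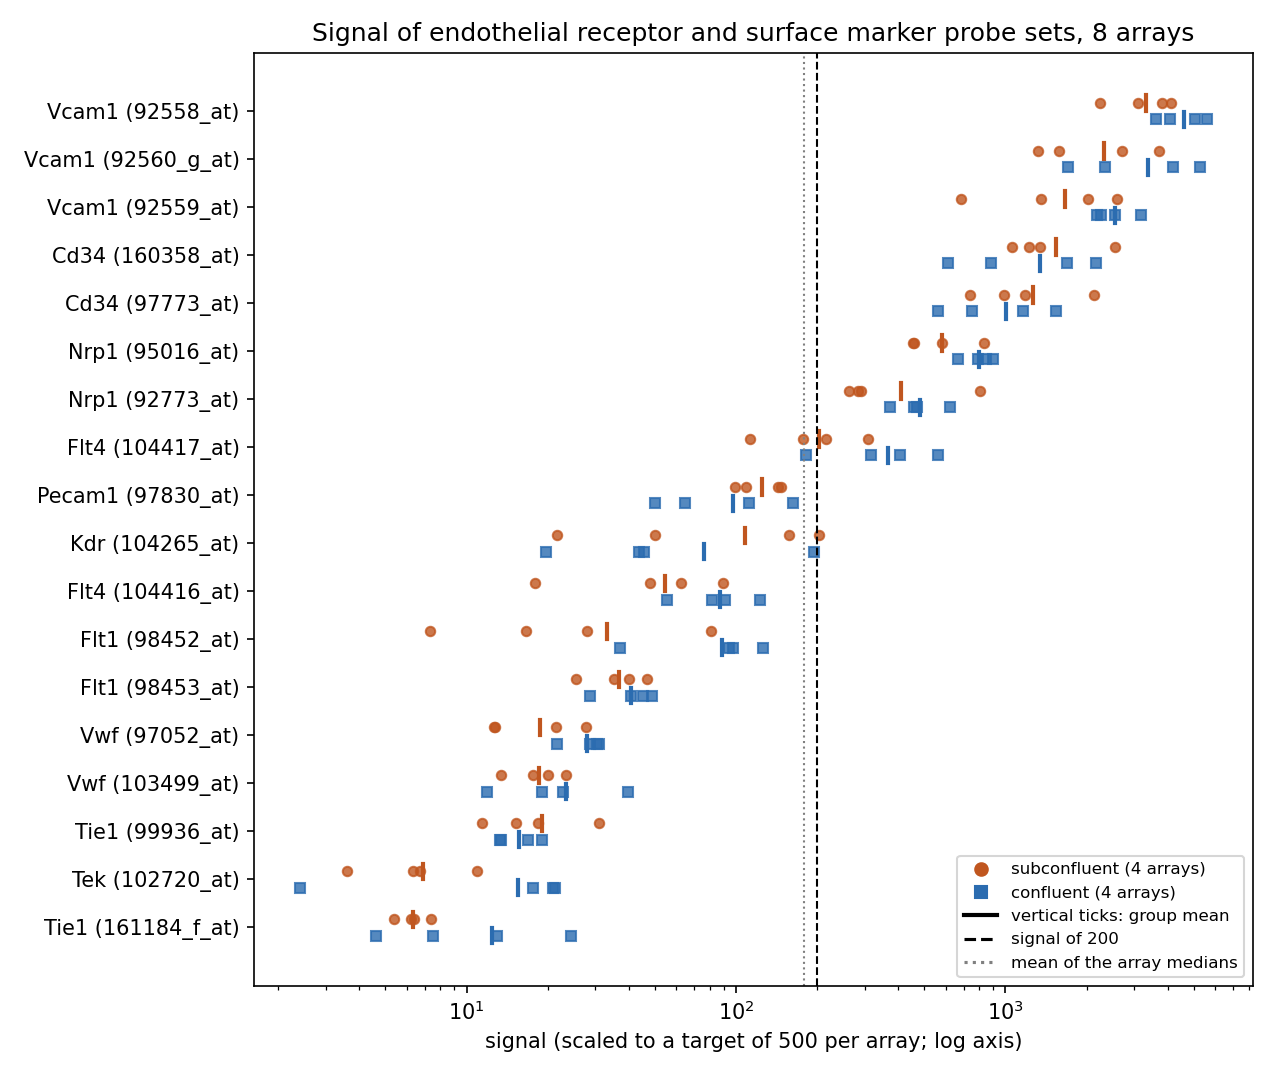
Signal of each of the 18 member probe sets on the 8 arrays (log axis), subconfluent arrays above confluent ones, with vertical ticks at the group means. The 3 Vcam1 probe sets had the highest means over the 8 arrays, though not the highest signals on each array, and Tek, Tie1 and Vwf stayed under a signal of 40 on every array. The dashed line is the signal of 200 needed for testing and the dotted line the mean of the array medians.

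Among the receptors for VEGF, Kdr, the main receptor for VEGF-A, had signals of 21.7, 204, 157 and 50.1 on subconfluent arrays 1 to 4, against 19.7, 194.5, 43.5 and 45.6 on confluent arrays 1 to 4. It averaged 108 ± 86.3 in subconfluent and 75.8 ± 80.0 in confluent cells (SD, n = 4), at percentiles 41.1 and 33.4. The groups overlapped, and the 3 highest values lay on the 3 arrays with the largest scale factors, the multipliers that bring each array to the common target. Those factors were 13.3 on subconfluent replicate 2, 8.19 on subconfluent replicate 3 and 8.99 on confluent replicate 2, and their part in the Kdr signal was not tested. Without the minimum on signal, the log2 difference of Kdr was 0.33, with a 95% interval from -0.69 to 1.34 (limma adjusted p = 0.806). All differences here are subconfluent minus confluent on log2 of the signal plus 50, a scale that shrinks the change of dim genes.

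Flt1, a VEGF receptor that also exists as a soluble decoy, was read by 2 dim probe sets. The brighter had 16.6, 81.0, 7.3 and 28.0 on subconfluent arrays, against 97.6, 126, 94.4 and 37.0 on confluent arrays. It was lower in the subconfluent array of each of the 4 experiments, and the groups overlapped through subconfluent replicate 2 and confluent replicate 4. Its difference was -0.77 ± 0.29 (SE, limma adjusted p = 0.204 over all probe sets without the minimum, 0.0963 with the experiment number as a block), which did not pass. For the other probe set the difference was -0.06, with a 95% interval from -0.39 to 0.27.

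Flt4, the receptor for VEGF-C and VEGF-D and a marker of lymphatic endothelium, reached the minimum with 1 of its 2 probe sets. That probe set, 104417_at, had signals of 309, 112, 177 and 216 on subconfluent arrays 1 to 4, against 560.1, 182, 406 and 317 on confluent arrays 1 to 4. In every experiment the subconfluent array was the lower one, while the groups as wholes overlapped because both arrays of experiment 2 were low. Flt4 was 1.61-fold lower in subconfluent cells (-0.69 ± 0.32 SE, 95% interval -1.38 to 0.01), which did not pass limma's test (adjusted p = 0.198). With the experiment number as a block it fell (adjusted p = 0.0217). The dimmer Flt4 probe set had group means of 54.4 ± 29.7 and 87.5 ± 27.8 (SD, n = 4) in subconfluent and confluent cells and a difference of -0.42 (adjusted p = 0.452 without the minimum).

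Nrp1 was read by 2 probe sets that both reached the minimum. The brighter, 95016_at, had 583, 456, 831 and 453 on subconfluent arrays 1 to 4, against 788, 899, 849 and 665.5 on confluent arrays 1 to 4. It averaged 581 ± 177 in subconfluent and 800.5 ± 101 in confluent cells (SD, n = 4), at percentiles 74.0 and 79.8. Its difference was -0.46 ± 0.20 (SE, 95% interval -0.90 to -0.02), with the subconfluent array lower in 4 of 4 experiments, and it passed neither without a block (limma adjusted p = 0.173) nor with one (0.0724). The other probe set, 92773_at, had 802, 264, 291 and 284 on subconfluent arrays, against 623, 469.7, 374 and 457 on confluent arrays. Subconfluent replicate 1 stood far above the other subconfluent arrays there, and in that experiment the direction was opposite to the other 3. Its difference was -0.33, with a 95% interval from -0.99 to 0.34 (adjusted p = 0.553), and within chip lot A, which held arrays of experiment 1, it was 0.34. Across the 8 arrays the 2 Nrp1 probe sets correlated at r = 0.286.

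The angiopoietin receptors were among the lowest signals on the arrays. Tek had 3.6, 10.9, 6.3 and 6.7 on subconfluent arrays, against 20.9, 17.7, 21.3 and 2.4 on confluent arrays, and its means lay at percentiles 2.54 and 7.67 in subconfluent and confluent cells. Confluent replicate 4 held the lowest value of all 8. The brighter Tie1 probe set averaged 19.0 ± 8.54 in subconfluent and 15.7 ± 2.79 in confluent cells (SD, n = 4), at percentiles 11.7 and 7.78. The other, whose name carries the suffix for a sequence family, averaged 6.35 ± 0.82 in subconfluent and 12.4 ± 8.74 in confluent cells. Values this low sit near the bottom of the scale, where 50 is added before log2, so differences such as -0.20 for Tek (limma adjusted p = 0.467 without the minimum) were not detectable at this signal rather than shown to be absent.

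Among the adhesion and surface proteins, Vcam1 had the highest mean signals of the group. Its brightest probe set, 92558_at, had 3096, 2241.5, 3807 and 4109 on subconfluent arrays 1 to 4, against 3629.7, 4087.5, 5063 and 5604.5 on confluent arrays 1 to 4. It averaged 3314 ± 831 in subconfluent and 4596 ± 899.6 in confluent cells (SD, n = 4), at percentiles 96.1 and 97.5. Subconfluent replicate 3 was above confluent replicate 1, and subconfluent replicate 4 above confluent replicates 1 and 2, so the groups overlapped, yet within each experiment the subconfluent array was lower. The difference was 1.40-fold lower (-0.48 ± 0.21 SE, 95% interval -0.95 to -0.01), not past limma's threshold without a block (adjusted p = 0.184). With the experiment number as a block Vcam1 fell (adjusted p = 0.0317).

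The other Vcam1 probe sets had the same direction. On 92560_g_at, a probe set whose suffix marks oligonucleotides shared with another set, signals were 1576, 1316, 2697 and 3727.5 in subconfluent cells, against 1702, 2349, 4201 and 5287.5 in confluent cells. On 92559_at they were 2024, 687, 1359.5 and 2593 in subconfluent cells, against 2271, 2183, 2550.5 and 3187 in confluent cells. Both were lower in the subconfluent array of 4 of 4 experiments, with differences of -0.51 and -0.73, and both fell with the block (limma adjusted p = 0.0330 and 0.0469, against 0.455 and 0.194 without it). The gap was widest in experiment 2 for all 3 probe sets, at -0.85, -0.81 and -1.60, and narrowest in experiment 1 for all 3, at -0.23, -0.11 and -0.16. The 3 sets read 1 gene on the same arrays and are not independent of each other, with correlations of 0.915, 0.862 and 0.693 between them over 8 arrays.

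**Figure D2:**
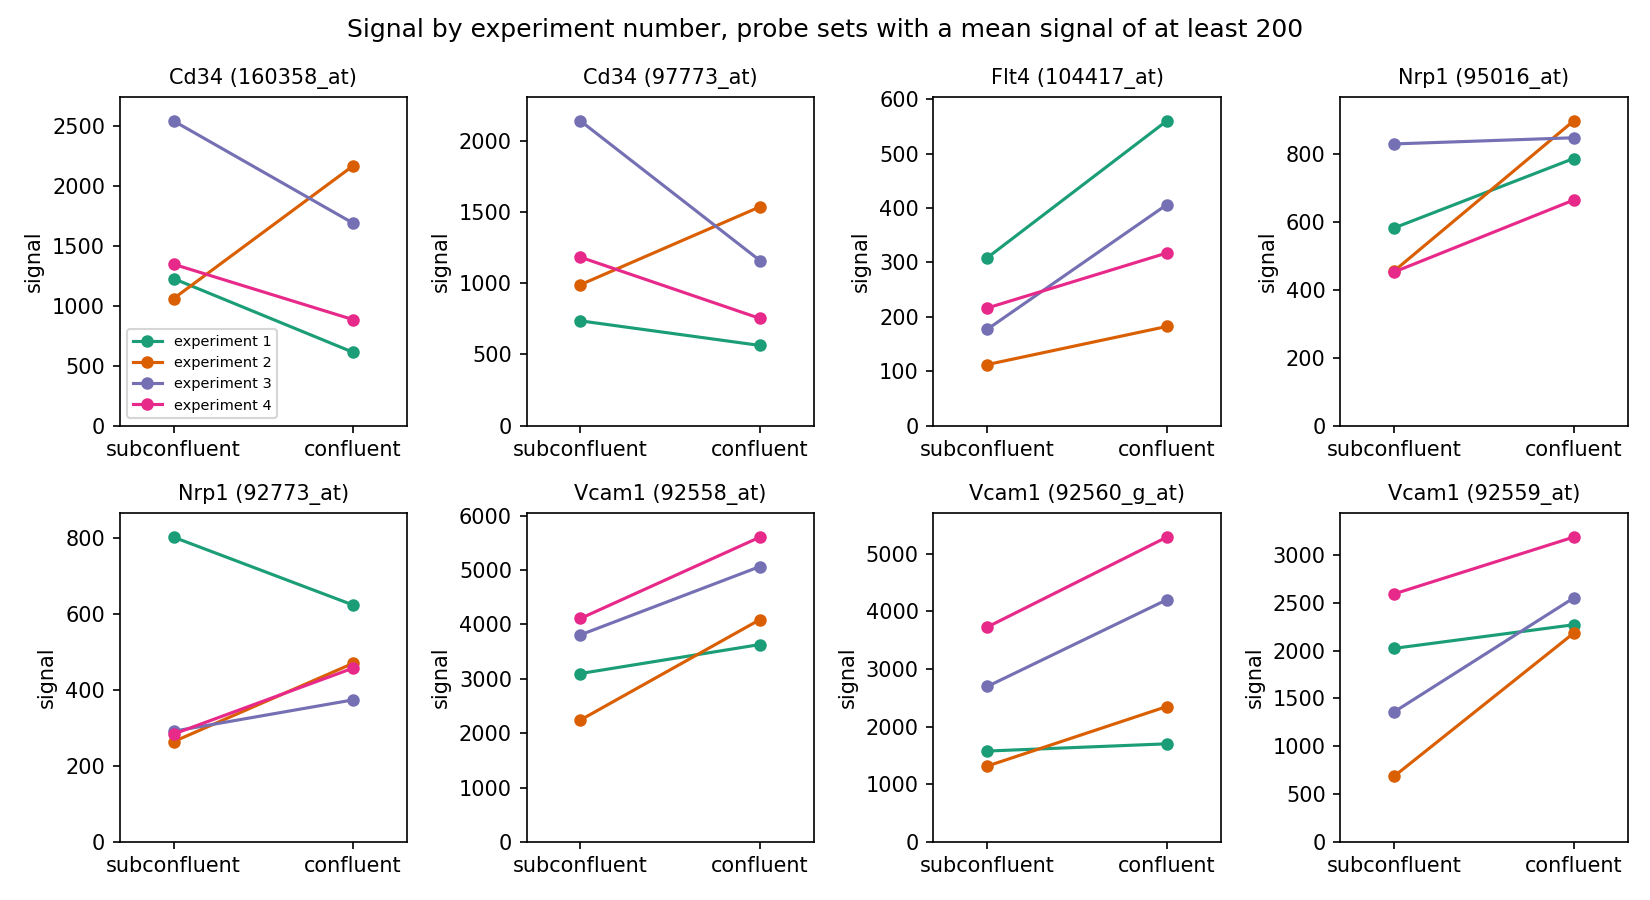
Signal of the 8 tested member probe sets, subconfluent left and confluent right, with a line joining the 2 arrays of each experiment. All lines of Vcam1, Flt4 and the brighter Nrp1 probe set run lower on the subconfluent side, and 3 of 4 lines of Cd34 run higher there.

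Cd34 did not share that direction. On 160358_at its signals were 1228, 1060.5, 2545 and 1348 on subconfluent arrays 1 to 4, against 613, 2169, 1691 and 886 on confluent arrays 1 to 4. On 97773_at they were 736, 989.9, 2141 and 1183 on subconfluent arrays, against 563.5, 1537, 1160.0 and 753 on confluent arrays. Both probe sets were higher in the subconfluent array of experiments 1, 3 and 4 and lower in experiment 2, and they followed each other closely over the 8 arrays (r = 0.941). The means of the brighter, 1545 ± 677 in subconfluent and 1339.7 ± 718 in confluent cells (SD, n = 4), lay at percentiles 89.9 and 88.0. The differences of 0.28 and 0.31 did not pass limma's test (adjusted p = 0.701 and 0.639), with 95% intervals from -0.56 to 1.11 and from -0.46 to 1.07. The sign of the brighter turned without confluent replicate 1, to -0.027 (adjusted p = 0.976). Without experiment 2 and with the block both rose, by 0.70 and 0.61 (limma adjusted p = 0.0171 and 0.0289). That fit was added after seeing the data, and it dropped the only experiment in which Cd34 ran the other way. Over the array it called 652 probe sets higher, against 258, 223 and 237 without experiments 1, 3 and 4. Without experiment 1, 3 or 4 neither Cd34 probe set passed with the block (limma adjusted p from 0.540 to 0.932).

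Pecam1 stayed under 200 on all 8 arrays. It had 109, 99.0, 147 and 143 in subconfluent cells, against 163, 112, 50.1 and 64.8 in confluent cells. The values overlapped widely, and the difference was 0.30, with a 95% interval from -0.29 to 0.88 (limma adjusted p = 0.662 without the minimum). Vwf was dim on both of its probe sets. The brighter averaged 18.6 ± 7.32 in subconfluent and 27.9 ± 4.32 in confluent cells (SD, n = 4), at percentiles 11.4 and 15.9, and the other 18.6 ± 4.18 in subconfluent and 23.4 ± 11.8 in confluent cells. Neither passed (adjusted p = 0.512 and 0.832 without the minimum).

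Over the whole array, 6.81% of the 6007 tested probe sets passed limma's test without a block, 2.75% higher and 4.06% lower in subconfluent cells. These were 165 higher and 244 lower, a split that became 237 and 211 when arrays were centred on their medians. Of the 8 tested member probe sets 0 passed, and 2 had an unadjusted p under 0.05, the brighter ones of Nrp1 and Vcam1, both lower. With the experiment number as a block 4 of the 8 fell and 0 rose, against 11.3% lower and 9.94% higher, 21.2% in all, over the 6007. By gene, 2 of 4 fell, Vcam1 and Flt4. The median difference of the 8 was -0.47, against 0.01 over all tested probe sets, and 6 of 8 were negative, against 48.8% of all. Probe sets of 1 gene are not independent, and by gene 3 of 4 were negative. A direction shared by all 4 experiments was also common elsewhere, at 22.1% of tested probe sets lower, and 20.7% higher, in every pair. None of the member probe sets had groups that did not overlap, while 8.54% of tested probe sets were lower, and 8.34% higher, without overlap. All 10 probe sets under the minimum failed to pass in fits over every probe set, where 1.67% passed without the block (0.58% higher and 1.09% lower) and 6.94% with it (2.91% higher and 4.03% lower).

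**Figure D3:**
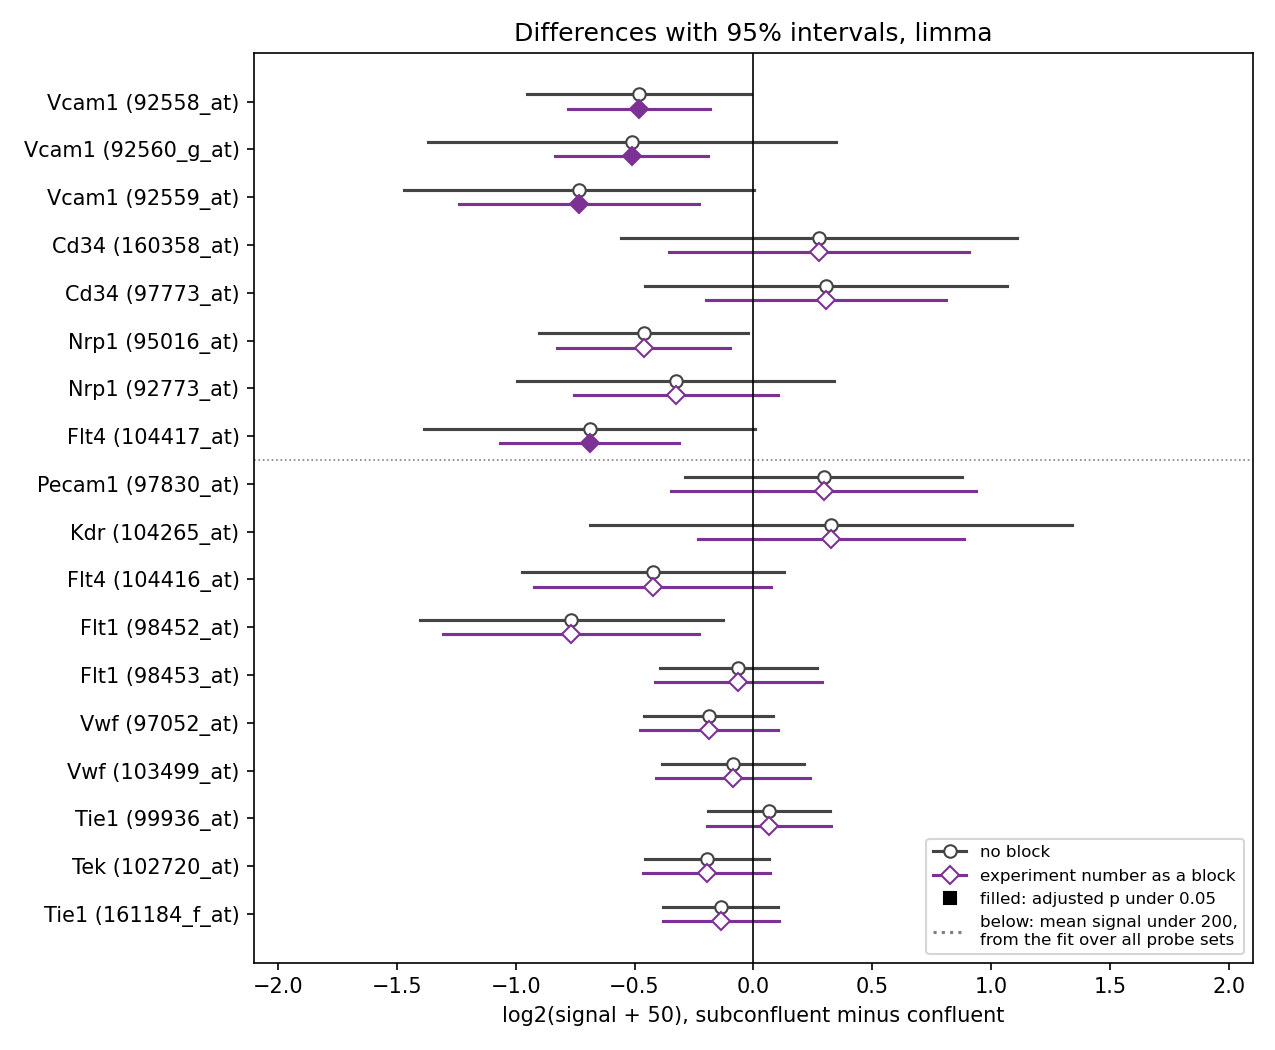
Difference (log2 of signal plus 50, subconfluent minus confluent) with 95% intervals for all 18 member probe sets, without a block (circles) and with the experiment number as a block (diamonds). Filled marks have an adjusted p under 0.05, which holds for the 3 Vcam1 probe sets and 1 Flt4 probe set with the block. Rows below the dotted line had a mean signal under 200.

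These calls rested on few arrays. With the block, Vcam1 (92558_at) did not pass without experiment 2 (limma adjusted p = 0.0789), 3 (0.0994) or 4 (0.105), nor Flt4 without experiment 1 (0.0828), 3 (0.102) or 4 (0.0551). Neither passed with the block when all 12422 probe sets were tested (0.0603 for Vcam1, 0.0588 for Flt4). The arrays came from 4 chip lots. Lot B held only confluent replicates 2 and 4, and lot D only subconfluent replicate 2, so there lot and group cannot be told apart. The arrays of experiments 2 and 4 therefore lay on different lots. Only lots A and C held arrays of both groups. Within lot A, 1 array against 1, Vcam1 differed by -0.23 and Flt4 by -0.77, and within lot C, 2 subconfluent arrays against 1, by -0.35 and -0.89. With the lot as a block, which draws on lots A and C, Vcam1 differed by -0.30 and Flt4 by -0.84. Neither passed in that fit (limma adjusted p = 0.327 and 0.0697), nor did any other tested member, against 6.13% higher and 5.24% lower over all. Scale factors ranged from 3.05 to 13.3 and array medians from 169 to 187.

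Markers of other cell types were read beside these results. Of the fibroblast and pericyte markers 10 of 13 reached the minimum, and their summed signal ran from 37868 to 52684 on subconfluent arrays, against 65382 to 94417 on confluent arrays, without overlap. In that list 4 genes fell and 0 rose (6 fell and 0 rose with the block), the 4 being Dcn (-2.04, limma adjusted p = 0.00135), which encodes decorin, Col1a2 (-1.04, 0.0163) and Col3a1 (-1.31, 0.0356), which encode collagens, and Lum (-2.70, 0.0317), which encodes lumican. A second Col1a2 probe set did not share the difference (-0.0026, 0.996), while 2 further ones of Col3a1 had -1.40 (0.0272) and -1.30 (0.0631). Dcn passed without each array in turn, and Col1a2, Col3a1 and Lum did not (adjusted p up to 0.0518, 0.0923 and 0.0747). Without the signal minimum Dcn and Col1a2 passed (limma adjusted p = 0.00305 and 0.0405), and Col3a1 and Lum did not (0.0602 and 0.0567). Lum averaged 153 in subconfluent cells, under that minimum. Col1a1, the brightest of the list, was at -0.39 (adjusted p = 0.280; 0.0221 with the block). Of the 10 genes 7 were negative, while Fbln2 was at 0.20 (0.513), Fbln1 at 0.14 (0.646) and S100a4 at 0.01 (0.994). Over all 4670 genes at the minimum 205 fell and 132 rose without a block. The part of these markers in the lower Vcam1, Nrp1 and Flt4 signals was not tested. In such bulk samples fewer cells of a type cannot be told apart from less RNA per cell. Of the macrophage markers only Cd14 of 10 reached the minimum (-0.70, adjusted p = 0.0563; 0.0228 with the block). Cd68 and Csf1r lay just under it, averaging 190 and 187 over the 8 arrays. Adgre1, Itgam and Mrc1 lay far under it, at 27.9, 25.1 and 21.6. The macrophage sums, 1976 to 2678 on subconfluent and 2886 to 4151 on confluent arrays, did not overlap. Cd14 made up most of them, averaging 1521 in subconfluent and 2541 in confluent cells, and the sums without Cd14 overlapped. Sums of the other lists overlapped, at 2323 to 10723 on subconfluent and 3606 to 5570 on confluent arrays for smooth muscle (4 of 8 genes), 1629 to 2416 and 1943 to 5488 for epithelium and mesothelium (2 of 8), 174 to 381 and 158 to 528 for lymphocytes (0 of 6), and 102 to 498 and 148 to 298 for red blood cells (0 of 3). The 4 smooth muscle genes had a median of 0.58. Mylk, a myosin kinase gene, fell (-1.84, adjusted p = 0.0163), the contractile genes Acta2 and Tagln were at 1.14 and 1.47 (0.228 and 0.108; 0.0172 and 0.0102 with the block), and Actg2 at 0.02 (0.978). Of the epithelial and mesothelial pair, Upk3b was at -0.85 (0.161; 0.0271 with the block) and Cdh1 at 0.30 (0.256).

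**Figure D4:**
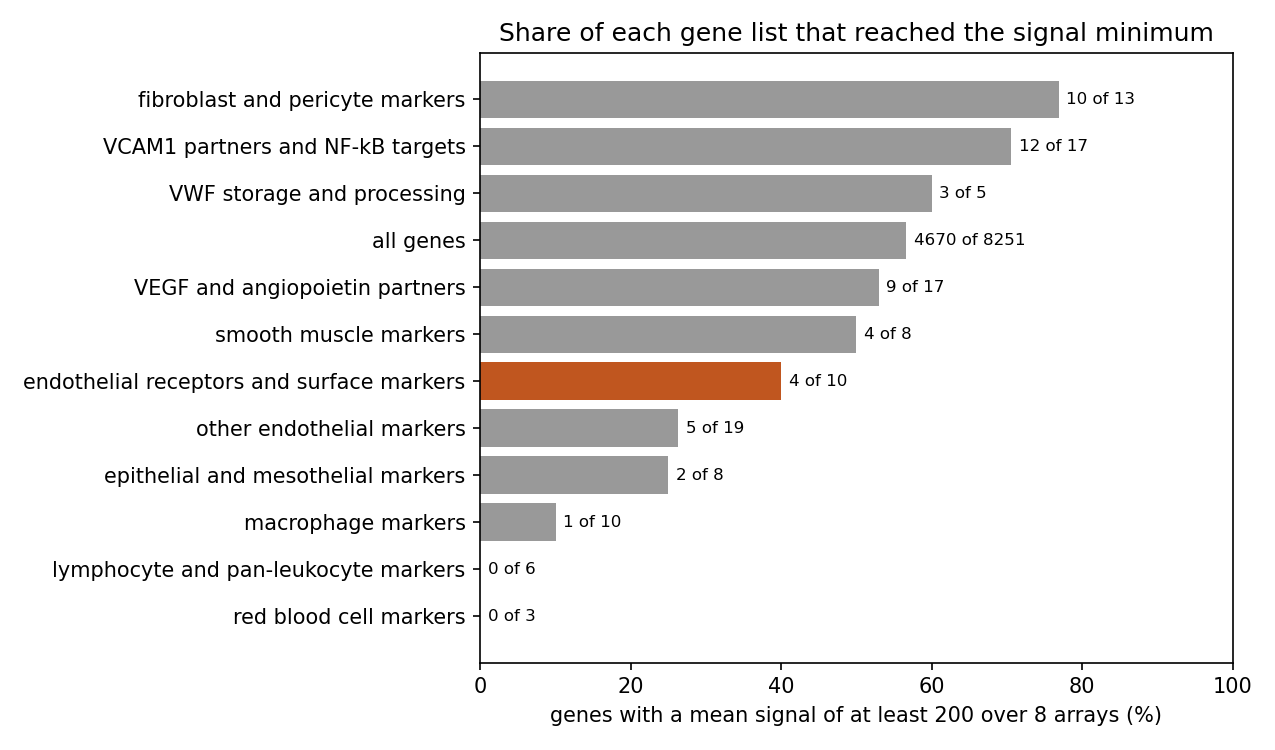
Share of the genes of each list whose signal averaged 200 or more across 8 arrays, with the count beside each bar. The endothelial receptors and surface markers reached it with 4 of 10 genes, other endothelial markers with 5 of 19, fibroblast and pericyte markers with 10 of 13, and all genes with 4670 of 8251.

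The labelled cell type was checked on further endothelial markers. Of 19 on the array 5 reached the minimum, 26.3%, and their summed signal overlapped between groups, at 4658 to 5728 on subconfluent and 4944 to 7658 on confluent arrays. The 5 lay at percentiles 93.8 (Pdpn), 81.5 (Edn1), 80.4 (Eng), 71.7 (Acvrl1) and 56.6 (Procr) of all signals. Several genes that define endothelial cells were near the bottom of the arrays. Cdh5, the cadherin of endothelial junctions, averaged 12.3 ± 5.18 in subconfluent and 13.6 ± 10.6 in confluent cells (SD, n = 4), at percentile 5.76 of all signals, Icam2 was at percentile 7.75, the tight junction gene Cldn5 at 8.73 and the endothelial nitric oxide synthase gene Nos3 at 12.5. Among the members, Tek, Tie1 and Vwf were also near the bottom, and Kdr (percentile 37.2) and Pecam1 (40.8) were under the minimum. Of the fibroblast and pericyte markers, Col1a1, Col1a2, Fbln2 and Dcn lay at percentiles 99.8, 99.5, 99.1 and 99.0. Pdgfrb, Postn and Fap of that list were under the minimum, at 51.2, 28.6 and 19.9. The dim endothelial genes go against a pure endothelial label, the brighter ones do not settle it, and the label was not tested. The cells are called here by the labels' name only.

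Those that did reach the minimum did not pass limma's test. Eng, a TGF-beta co-receptor, was -0.17 (adjusted p = 0.499), the lymphatic and stromal gene Pdpn -0.40 (0.212), the endothelin gene Edn1 -0.89 (0.133), the protein C receptor gene Procr 0.62 (0.213; 0.0320 with the block) and the receptor gene Acvrl1 -0.06 (0.908). Selp, the P-selectin gene stored with von Willebrand factor in Weibel-Palade bodies, had a mean just under the minimum and was singled out after its values were seen. It averaged 289.6 ± 61.5 in subconfluent and 95.6 ± 55.7 in confluent cells (SD, n = 4), a difference of 1.29 in the fit over all probe sets (adjusted p = 0.0544, and 0.0436 with the block).

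Ligands and signalling partners of the VEGF and angiopoietin receptors were read as a list. Of 17 such genes on the array 9 reached the minimum, 1 rose and 1 fell (2 rose and 3 fell with the block), with a median of -0.39. Over the array 56.6% of genes reached it. Of all tested probe sets 2.75% rose and 4.06% fell (9.94% and 11.3% with the block). Vegfd, a ligand of the Flt4 product, fell to 659.7, 229, 1333 and 889 on subconfluent arrays 1 to 4, against 5350.4, 1539, 2649 and 2000.3 on confluent arrays 1 to 4. The groups did not overlap, as for 8.54% of all tested probe sets in that direction. The difference was -1.88 ± 0.48 (SE, limma adjusted p = 0.0410). It did not pass without subconfluent replicate 1, 2 or 4 or confluent replicate 1, 3 or 4 (adjusted p up to 0.0913), nor without the signal minimum (0.0713). Vegfa, the ligand of the Kdr product, was 0.39 (adjusted p = 0.333) and Vegfb, a ligand of the Flt1 product, -0.42 (0.237; 0.0511 with the block). Vegfc and the angiopoietin genes Angpt1 and Angpt2 lay under the minimum in both groups.

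Among the semaphorins, Sema3a, whose product binds neuropilin, rose to 439, 491, 404 and 558 on subconfluent arrays 1 to 4, against 133, 249, 259 and 228 on confluent arrays 1 to 4, without overlap (0.99 ± 0.20 SE, limma adjusted p = 0.0211). It did not pass without subconfluent replicate 2 or 4 (adjusted p up to 0.0643). Sema3e had 1178, 1041, 755 and 1032 in subconfluent cells, against 130.4, 644, 498.5 and 424 in confluent cells, a difference of 1.29 (adjusted p = 0.0519; 0.0239 with the block). Plxnd1, which encodes the receptor for the Sema3e product, had 261, 57.3, 149.7 and 211 in subconfluent cells, against 592, 336, 326 and 399 in confluent cells, a difference of -1.15 (adjusted p = 0.0534; 0.00749 with the block). Both pairs of groups were without overlap, in opposite directions, as were 8.34% of all tested probe sets higher and 8.54% lower in subconfluent cells.

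**Figure D5:**
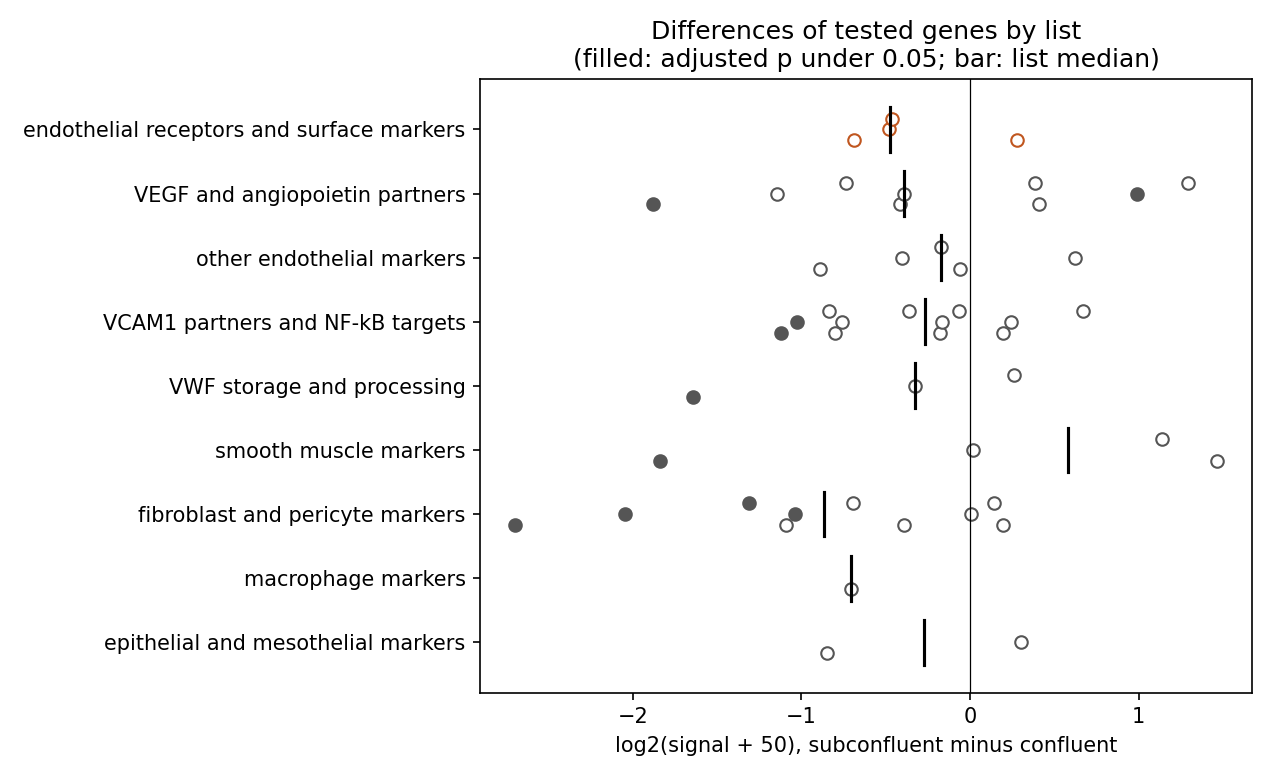
Difference (log2 of signal plus 50, subconfluent minus confluent) of each tested gene, by list, with a bar at the list median. Filled circles passed limma's test without a block. The 4 tested receptors and surface markers lie between -0.69 and 0.28, and Vegfd and Dcn stand at -1.88 and -2.04.

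Partners of Vcam1 and genes induced with it through NF-kB, the transcription factor of inflammatory signalling, reached the minimum in 12 of 17 cases. Of these 2 fell and 0 rose (3 fell and 1 rose with the block). Over all tested probe sets 4.06% fell and 2.75% rose (11.3% and 9.94% with the block). The 2 that fell without the block were the chemokine gene Ccl7 and the NF-kB subunit gene Relb. Ccl7 was at 523 ± 248 in subconfluent and 1141 ± 277 in confluent cells (SD, n = 4; -1.12, limma adjusted p = 0.0414). Relb was at 158 ± 53.4 in subconfluent and 373 ± 114 in confluent cells (-1.02, 0.0414). Each lost its call in most fits without 1 array, Ccl7 in all but those without subconfluent replicate 1 or confluent replicate 2, and Relb in all but that without confluent replicate 2, with adjusted p up to 0.101. Icam1, a second adhesion molecule for white blood cells, was -0.84 (adjusted p = 0.146; 0.00874 with the block), and Msn, which links adhesion proteins to actin, 0.67 (0.0896; 0.0109 with the block). The median of the 12 was -0.27. Without the signal minimum neither Ccl7 nor Relb passed (limma adjusted p = 0.0727 and 0.0818), and the subconfluent mean of Relb lay under that minimum. The integrin genes whose products bind VCAM1 differed in level, with Itgb1 at percentile 99.2 and Itga4, under the minimum, at 27.4.

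Among genes of von Willebrand factor storage and processing 3 of 5 on the array reached the minimum, and 1 fell, against 4.06% of all tested probe sets. Rab3d, which encodes a GTPase of secretory granules, had 225, 39.2, 159 and 241 on subconfluent arrays, against 873, 498, 456 and 506 on confluent arrays (-1.64 ± 0.36 SE, limma adjusted p = 0.0266). It did not pass without confluent replicate 1, 3 or 4 (adjusted p up to 0.0605). Its subconfluent mean, 166, lay under the signal minimum, and without that minimum it was just past the threshold (limma adjusted p = 0.0497). Cd63, a membrane protein of lysosomes and Weibel-Palade bodies, was -0.33 (adjusted p = 0.304; 0.0393 with the block) and Furin, which cleaves the von Willebrand factor precursor, 0.26 (0.418).

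Over the 8 arrays the genes whose log2 signal followed each tested member most closely, by Pearson correlation among all genes at or over the minimum, were as follows. For Vcam1 they were Slc1a4 (r = 0.955), Pros1 (0.953) and Rab24 (0.950). For Flt4 they were Dock9 (0.977), Ift81 (0.969) and Pla2g6 (0.957), and for Nrp1 Adcy3 (0.986), Dap (0.954) and Pcolce (0.940). Cd34 was closest to Uts2r (0.943), Ap2a1 (0.922) and Hcfc1 (0.918). All points share the arrays, their scaling and the 2 groups, and 4670 genes were searched with 8 points each, so these are descriptions only.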

How the data were processed

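Signals were measured on 8 Affymetrix mouse arrays, 4 of subconfluent and 4 of confluent cells, grouped by the sample titles. The deposited values are linear signal intensities, 1 per probe set and array. Per the labels, the authors derived them by Affymetrix's statistical algorithm, with every array scaled to a target of 500. The number of arrays limits the precision.

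Of 12488 probe sets 66 controls were left out. Annotation gave 1 symbol for 10833, several for 396 and none for 1193 of the others. Those averaging 200 or more (6007) were tested on log2 of signal plus 50 by limma 3.58.1 in R 4.3.3 (lmFit, eBayes with a variance trend), two-sided, with Benjamini-Hochberg adjustment over all tested and a threshold of 0.05. The test was checked on simulated arrays. The probe set with the highest mean stood for a gene. Tables and plots used Python 3.11.15, pandas 2.3.3, numpy 2.4.6 and matplotlib 3.10.9.

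Experiment numbers were taken to pair the samples, since deviations from the group means correlated at 0.486, 0.357, 0.516 and 0.348 for arrays of the same number and at most at 0.0681 for others, and the labels call them experiments. Fits with that number as a block are therefore given beside the others.

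Members, lists, tests and alternatives were chosen with earlier results of these data known. Named were all members, up to 4 tested genes per list with the smallest p, some of the 3 brightest of each cell type list, and the 3 genes most alike each tested member. Gene names outside this rule were chosen after their values were seen. Alternatives were other pseudocounts (1, 150), filters (none, 500), quantile normalization, median centring, array weights, no variance trend, the scale factor as a covariate, chip lot and pair blocks, lots alone, and each array left out. The pair block without the minimum on signal, and the pair block with 1 experiment left out, were added after seeing the data.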

Additional observations from a re-analysis of the deposited data

Results flagged for a closer look

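Each group of 4 signals was examined for a sample far from the others, in 36 groups, of which chance would mark about 1 in 20, and 2 stood out. Kdr had a signal of 194.5 on confluent replicate 2, where the other confluent arrays lay between 19.7 and 45.6. On Nrp1 probe set 92773_at subconfluent replicate 1 had 801.7, and the other subconfluent arrays lay between 264 and 291.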

How the results depend on the processing

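Over the alternatives, 211 of 224 values of single member probe sets kept their direction and, where there was a test, their side of the threshold. A further 11 passed the threshold where the unblocked fit did not, and 2 changed sign. The sign changes were Nrp1 (92773_at) at 0.34 within lot A and Cd34 (160358_at) at -0.027 without confluent replicate 1, in a range from -0.027 to 0.55 over arrays left out. Without a block 0 member genes passed in any fit that left out 1 array. With the replicate block 2 fell, and with it and 1 experiment left out 0 to 1 fell and 0 to 1 rose. Of the 11, 1 was Vcam1 (92559_at) with the scale factor as a covariate (limma adjusted p = 0.0437), and the others carried the block. Over all tested probe sets, 165 were higher and 244 lower. The counts were 72 and 136 without the minimum on signal, 597 and 679 with the replicate block, 362 and 500 with both changes, 368 and 315 with chip lot as a fixed block, 453 and 485 as a random one, and 2 and 3 within lot C. They were 311 and 331 with array weights and 237 and 211 with median centring, which moved the split towards higher calls. Leaving out 1 array gave 18 to 342 higher and 80 to 345 lower, the fewest without subconfluent replicate 4 and the most without confluent replicate 2. The replicate block without 1 experiment gave 223 to 652 higher (258, 652, 223 and 237 without experiments 1 to 4) and 353 to 618 lower (353, 618, 367 and 413). The causes of these shifts were not tested. Some of the alternatives have fewer samples or a larger number of probe sets by construction. Probe sets under the minimum have values only in fits without it. Lot A, with 1 array a group, gives no test, and Flt4 and Nrp1 (92773_at) have no value at a minimum of 500. Signals under the minimum limit what can be seen for Kdr, Flt1, Tek, Tie1, Pecam1 and Vwf.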
